A study of Rattus norvegicus with 27 samples.

Results

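The cytosolic ribosomal protein genes were examined in the brains of control and diabetic rats. Members were the non-control features of the array (a feature is the probe for a transcript) whose gene name begins with Rpl or Rps and a digit, or with Rplp, apart from the Rps6k kinases. The rule found 110 features for 74 genes, out of 41012 non-control features under 35561 names. Of these, 67 features measured 44 genes of the large subunit (Rpl and Rplp) and 43 features measured 30 genes of the small subunit (Rps). In all 110, some group had 2 or more of its 3 arrays well above background, and 109 features were so on all 27 arrays. No member spot was saturated. The names are those of the array's design, and 6 features carry a description that names no ribosomal protein, among them an expressed sequence tag each for Rps15 and Rpl37. These 6 were kept as members and are pointed out where a result rests on them.

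RNA came from the hippocampus, the prefrontal cortex and the striatum of male rats aged 10 weeks, with 9 rats in each group. Controls were untreated Wistar rats, with an average blood sugar of 7.64 mmol/l. Goto-Kakizaki rats, a strain derived by breeding Wistar rats that tolerated glucose poorly and here the type 2 diabetes model, averaged 13.9 mmol/l. Streptozotocin rats, a model of type 1 diabetes, were Wistar rats injected into the tail vein at 6 weeks with 65 mg/kg of the drug, which kills the insulin-producing cells of the pancreas, and they were studied after 4 weeks at an average of 26.34 mmol/l. Each region of each group gave 3 pools of 3 rats and each pool 1 array, so that 9 groups of 3 arrays were available. The regions of a group came from the same 9 animals, and the p-values measure the spread between pools, which leaves out the spread between single rats. The Goto-Kakizaki comparison sets one strain against another, so strain and diabetes cannot be told apart in it.

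Ribosomal proteins and ribosomal RNA together form the small subunit, which reads the mRNA, and the large subunit, which joins the amino acids. The cell needs the proteins in equal amounts, and their mRNAs are among the most abundant of any cell. Most of these mRNAs begin with a cytidine and a run of pyrimidines, the 5′ terminal oligopyrimidine (TOP) tract, through which translation of the whole family is set by mTOR, a kinase that insulin activates through Akt.

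This shared feature can be read from the gene starts, in the RefSeq table of the GRCr8 assembly. Of the 74 member genes 60 matched an entry by symbol, and 23 of them (38.3%) began at the annotated start with C followed by at least 4 further pyrimidines, against 881 of 33469 genes of the table (2.63%). A pyrimidine run of 5 bases led by C lay within 10 bases of the annotated start on the coding strand in 45 member genes (75%), against 9660 of all genes (28.9%). A match of letters is a description and not evidence that the tract is used. The starts of 6 genes of this report are shown, from 10 bases before the annotated start to 20 bases into the transcript. Capitals mark the pyrimidine run that begins at the annotated start, and Rpl3l, a muscle form of L3, is shown as a member without one.

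Rps7 (chr6:50999426-50999455, minus strand): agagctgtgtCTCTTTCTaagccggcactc
Rplp1 (chr8:71290853-71290882, minus strand): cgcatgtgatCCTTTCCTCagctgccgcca
Rpl22 (chr5:168117951-168117980, plus strand): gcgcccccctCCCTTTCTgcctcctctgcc
Rpl37a (chr9:81748081-81748110, plus strand): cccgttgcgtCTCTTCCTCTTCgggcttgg
Rplp0 (chr12:46718371-46718400, minus strand): caccgcacttCTCTCgccaggcgtcctcat
Rpl3l (chr10:14258436-14258465, plus strand): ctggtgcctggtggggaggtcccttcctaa

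Levels are given as the log2 of the processed signal over the 75th percentile of the signals of the same array. On this scale 0 is the 75th percentile and each unit is a doubling. The signal at that percentile ran from 690 to 1530 over the arrays, and 67.4% to 75.3% of the features of an array were well above background. The median member lay at 5.60, which is 48.5 times the 75th percentile, and 101 of the 110 features lay above the percentile on all 27 arrays. The exceptions that lay below it on every array were 8 features. Among them were 1 of 2 Rpl28 features, the tag for Rpl37, the only Rpl37a feature and Rpl3l. Member levels ran from -5.34 to 8.73. Of the member values, 30 were marked as outlier spots by the image software and left out, each of which removes 1 of the 3 arrays of a group for that feature. Markers fitted the striatum and the hippocampus. All 7 features of medium spiny neuron genes were called higher in the control striatum than in the control hippocampus (median difference 5.93) and all 4 of excitatory neuron genes lower (median difference -2.57). In the control prefrontal cortex 5 of the 7 were called higher than in the hippocampus too (median 1.85), with list means of the pools from -2.01 to -0.01. Choroid plexus markers ran from -3.37 to 0.44 over the control hippocampus pools.

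The family differed little between the 9 groups apart from a step between regions. The range of the 9 group means of a feature had a median of 0.69 (quartiles 0.60 and 0.82), and it passed 1, a 2-fold change, for 7 features. The widest range was that of Rps7, a small subunit protein, at 3.81. Rpl13 followed at 1.15 for 1 of its 2 features and Rpl37a had 1.07. Among the 4 narrowest ranges was that of 1 Rpl15 feature (0.31).

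The median over the 110 members was 5.33 ± 0.06 (SD, n = 3) in the control hippocampus, 5.53 ± 0.12 in the control prefrontal cortex and 5.90 ± 0.24 in the control striatum. In Goto-Kakizaki rats it was 5.42 ± 0.05, 5.55 ± 0.19 and 5.96 ± 0.24 in the same order, and in streptozotocin rats 5.48 ± 0.16, 5.58 ± 0.09 and 5.84 ± 0.11. All 9 striatum arrays, from 5.72 to 6.24, lay above all 9 hippocampus arrays, from 5.26 to 5.67, and above the 9 of the prefrontal cortex, from 5.34 to 5.70, whereas the hippocampus and the prefrontal cortex overlapped. The groups of animals overlapped within the prefrontal cortex and the striatum. In the hippocampus the control arrays (5.26 to 5.37) lay below the streptozotocin arrays (5.38 to 5.67) without overlap, and the Goto-Kakizaki arrays (5.36 to 5.46) overlapped with both. No slide held both control and streptozotocin hippocampus arrays, so slide and treatment cannot be told apart there.

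**Figure D1:**
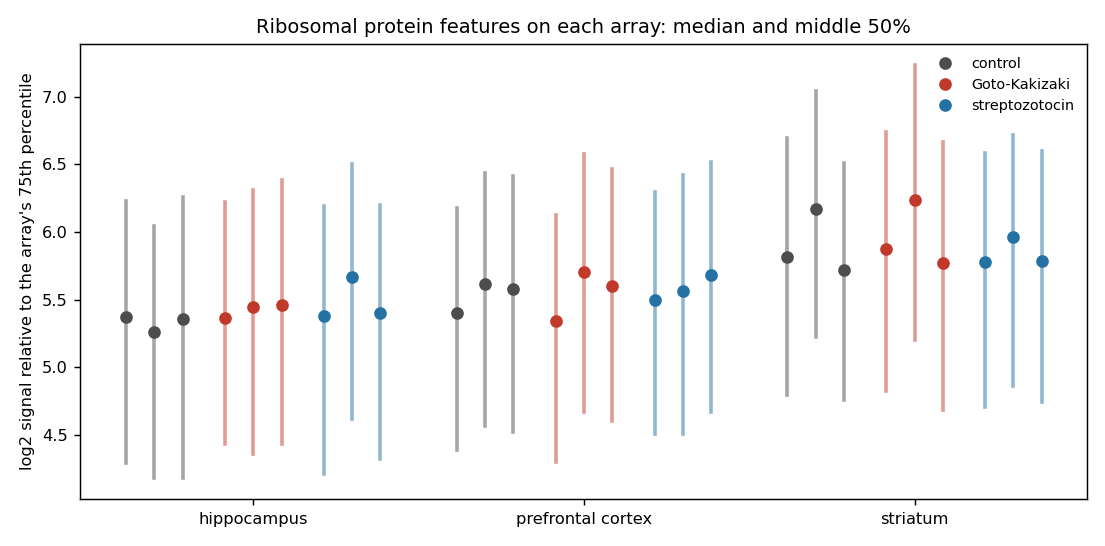
Median (point) and quartiles (ends of the line) of the 110 ribosomal protein features on each of the 27 arrays (log2 of the processed signal over the array's 75th percentile, vertical axis), by region and group. Striatum medians run from 5.72 to 6.24 and hippocampus medians from 5.26 to 5.67, on this scaling; with normexp background correction the members' region difference is smaller than that of all features.

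Pools of a group moved as a block. Among members with 3 values, pool 2 of the streptozotocin hippocampus was the highest of its group for 104 of 108 features, pool 2 of the control striatum for 98 of 107, and pool 2 of the Goto-Kakizaki striatum for 94 of 108. In the control hippocampus no pool led in this way (50, 20 and 34 of 104 features for pools 1, 2 and 3). The median spread between the highest and the lowest pool of a feature was 0.53 in the control striatum, 0.51 for the Goto-Kakizaki striatum but 0.12 for the Goto-Kakizaki hippocampus. The top of the signal distribution moved with these pools: the 99th percentile, in the same unit, ran from 5.39 to 5.73 in the hippocampus, from 5.51 to 5.82 in the prefrontal cortex and from 5.63 to 6.07 in the striatum. The member median relative to the 99th percentile of its own array was -0.19 to -0.01 in the hippocampus, -0.17 to -0.07 in the prefrontal cortex and 0.09 to 0.18 in the striatum. The part of the signal distribution in the differences between regions was not tested.

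The first comparison asked how the family differs between brain regions of healthy rats. In the control striatum 80 of the 110 features were called higher than in the control hippocampus and 1 lower, at an adjusted p under 0.05 by limma, where 17.0% of all 31609 features tested were called higher and 12.5% lower. The median difference was 0.55 (quartiles 0.41 and 0.68) for members and 0.03 for all features. Both subunits took part, with 53 of 66 large subunit features (median 0.55) and 27 of 38 small subunit features (median 0.57) called higher, leaving out the 6 features without a ribosomal description. The direction depended on the background correction, since with normexp the member median was 0.29 but that of all features 0.40, which turns the sign relative to all features and leaves 6 calls. In each scaling of the processed signal the members stayed above all features (0.55 against 0.03 for the 50th percentile, 0.26 against -0.25 for the 99th, 0.28 against 0.01 after quantile normalization). Leaving out control striatum pool 2 left 41 calls, the fit of these 2 groups alone 34 and the methods' t-test, once adjusted by Benjamini-Hochberg, 2. No slide held arrays of both groups, so slide and region cannot be told apart in this comparison. The same holds for the control prefrontal cortex against the hippocampus, and for the striatum against either region in both diabetic models. Nor was a slide shared by Goto-Kakizaki and control prefrontal cortex, or by streptozotocin and control striatum. Goto-Kakizaki and streptozotocin arrays of the same region shared no slide either.

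Rpl5, which carries 5S ribosomal RNA into the large subunit, had the smallest p. The levels of its feature were 4.60, 4.55 and 4.58 in the 3 hippocampus pools, 4.75, 4.86 and 4.83 in the prefrontal cortex and 5.16, 5.26 and 5.15 in the striatum. The 3 regions did not overlap, and the striatum lay 0.61 (SE 0.09) above the hippocampus, with a limma adjusted p of 5.9e-05. The other Rpl5 features differed by 0.54 (SE 0.11) and 0.44 (SE 0.15) and were called as well.

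Rpl21, a large subunit protein, was measured by 5 features, and all 5 were called higher in the striatum. Differences ran from 0.55 (SE 0.11) to 0.68 (SE 0.11), with limma adjusted p between 7.4e-05 and 0.00086. The feature with the smallest p had levels of 5.39, 5.36 and 5.35 in the hippocampus and of 6.03, 6.22 and 5.89 in the striatum. The prefrontal cortex lay between them, at 5.66, 5.81 and 5.63.

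Rpl29, a small basic protein on the surface of the large subunit, was called in 3 of its 4 features. The first had levels of 4.24, 4.10 and 4.18 in the hippocampus and of 4.84, 5.36 and 4.80 in the striatum, a difference of 0.83 (SE 0.14, limma adjusted p 8.4e-05). Pool 2 of the striatum was the highest here too, but all 3 striatum pools lay above the hippocampus. The Rpl29 feature that was not called differed by 0.26 (SE 0.13, adjusted p 0.13), with control striatum pool 2 left out as an outlier spot.

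The stalk of the large subunit, made of P0, P1 and P2, binds the elongation factors. Rplp2 was called higher in the striatum (5.89, 5.80 and 5.88 in the hippocampus against 6.53, 6.91 and 6.39), by 0.76 (SE 0.18, limma adjusted p 0.0027). Rplp1 lay at 7.95, 7.83 and 7.95 in the hippocampus and at 8.13, 8.41 and 8.05 in the striatum, without overlap, yet its difference of 0.29 (SE 0.13) was not called (adjusted p 0.10). The array names the P0 gene Arbp, so that it is not among the members; its difference was 0.34 (adjusted p 0.13). Rps6, the small subunit protein that S6 kinases phosphorylate, was called at 0.46 (SE 0.13, adjusted p 0.011), with 7.19, 7.15 and 7.13 in the hippocampus and 7.56, 7.86 and 7.41 in the striatum.

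Of the members, 1 was called higher by at least 2-fold. Among paralogues, Rpl3l differed by 0.95 (SE 0.18, adjusted p 0.00030) and Rpl10l, a testis form of L10, by 0.87 (SE 0.24, adjusted p 0.0078). Rpl3l had levels of -1.47, -1.38 and -1.35 in the hippocampus and of -0.64, -0.05 and -0.65 in the striatum.

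Rpl37a, which binds zinc in the large subunit, was the member called lower. Its levels were -3.41, -3.43 and -3.41 in the hippocampus, next -3.28, -3.37 and -4.03 for the prefrontal cortex and -4.38, -4.35 and -4.64 in the striatum. The striatum lay 1.04 below the hippocampus, a difference of -1.04 (SE 0.17, limma adjusted p 7.7e-05). This is one of the features under the 75th percentile on all arrays, and with normexp its difference was 0.26 (adjusted p 0.68), so the direction turned.

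Features of 1 gene did not always move together. Of the 24 genes with several features, all features were called higher in the striatum for 13, some for 8 and none for 3 (Rpl37, Rps15 and Rps15a), and the median spread between features of a gene was 0.18. Signs were opposite for 3 genes, Rpl28 and Rpl37 among them. For Rpl28 the values were 0.58 (SE 0.18, adjusted p 0.015) and -0.09 (SE 0.13), and for Rpl37 0.51 (SE 0.20, adjusted p 0.062) and -0.31 (SE 0.23). Probes can also share sequence: 29 of the 110 member features share a run of at least 20 bases with a feature of another name.

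Members were also described by their TOP tract, with no test of the difference. In the control striatum against the hippocampus, 21 of 32 features of genes with the tract at the annotated start were called higher (median 0.56), and 44 of 56 features of matched genes without it (median 0.55). With the tract counted within 10 bases of the start, 48 of 70 were called (median 0.54), and 17 of 18 without it (median 0.60). Against the prefrontal cortex the counts were 7 of 32 with the tract at the start (median 0.36) and 26 of 56 without it (0.38), and 22 of 70 with it within 10 bases (0.34) and 11 of 18 without it (0.49).

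The prefrontal cortex lay between the other regions. Compared with the hippocampus of controls, 4 members were called higher and 0 lower, where 8.74% of all features were called higher and 6.92% lower, and the medians were 0.17 and 0.02. These 4 were 3 Rpl21 features (0.33, 0.29 and 0.33, with limma adjusted p of 0.037, 0.046 and 0.046) and Rpl10l, at 0.27, 0.52 and 0.12 in the hippocampus against 0.84, 1.07 and 1.15 (difference 0.72, adjusted p 0.043). The calls were not firm: 0 remained at the 50th percentile, with normexp, without the filter on dim features or with the replicate number as a block, and leaving out 1 pool left 0 to 3 calls.

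Compared with the prefrontal cortex of controls, 38 members were called higher in the striatum and 1 lower, where 12.9% of all features were higher and 12.1% lower. The median difference was 0.38 for members and 0.00 for all features, and it turned with normexp, where it was 0.14 for members and 0.40 for all features. Within slide 5 the member median was 0.64 and within slide 6 it was 0.12, each from 1 array per group. Leaving out control striatum pool 2 left 10 calls, control prefrontal cortex pool 1 left 13 and pool 2 left 24, and the fit of the 2 groups alone called 2. Rpl22, which binds small viral and cellular RNAs besides its place in the large subunit, had levels of 3.24, 3.42 and 3.39 in the prefrontal cortex and 4.15, 4.41 and 3.94 in the striatum, a difference of 0.82 (SE 0.13, limma adjusted p 8.8e-05). Its hippocampus levels of 3.62, 3.39 and 3.43 overlapped with the prefrontal cortex. Rps12 differed by 0.82 and 0.53 in its 2 features (adjusted p 0.00081 and 0.011) and Rps4x, the X-linked form of S4, by 0.54 (adjusted p 0.0024). Rpl37a was again the member called lower, at -0.90 (SE 0.17, adjusted p 4e-04), and again turned with normexp (0.34).

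The same regions were compared in the diabetic models, which use other animals. In Goto-Kakizaki rats 91 members were called higher in the striatum than in the hippocampus and 1 lower, where 24.3% of all features were higher and 15.5% lower, with medians of 0.55 and 0.09. In streptozotocin rats 37 were called higher and 0 lower, where 12.1% of all features were higher and 10.7% lower, with medians of 0.41 and 0.02. Of the 80 features called higher in controls, 72 were called in Goto-Kakizaki rats as well and 30 in streptozotocin rats, and 30 were called in all 3 groups. With 91 of 110 members called in Goto-Kakizaki rats and 37 in streptozotocin rats, much of this overlap follows from the call rates alone. The overlap was not counted for all features, and whether that of the members exceeds the call rates was not tested. Members were called higher in the striatum than in the prefrontal cortex for 49 features in Goto-Kakizaki rats (17.9% of all features, with 1 member lower against 16.9%) and for 11 in streptozotocin rats (13.1% of all features, with 0 members lower against 14.2%). Prefrontal cortex and hippocampus differed in 0 members by limma in Goto-Kakizaki rats (11.6% of all features higher and 8.95% lower, 6 members at an unadjusted p under 0.05) and in 0 in streptozotocin rats (9.48% higher and 8.14% lower, 1 member at an unadjusted p under 0.05). Whether the region differences themselves differ between the groups of animals was tested for Goto-Kakizaki against control rats only, as given below.

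The order of the regions was the same in most features. The striatum had the highest mean of the 3 regions for 100 of 110 features in controls, 102 in Goto-Kakizaki and 101 in streptozotocin rats, and the full order of striatum, prefrontal cortex and hippocampus held for 91, 96 and 94. Rpl37a remained lower in the Goto-Kakizaki striatum than in the hippocampus, at -0.59 (limma adjusted p 0.0099), and had a value of -0.46 (adjusted p 0.057) in streptozotocin rats.

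**Figure D2:**
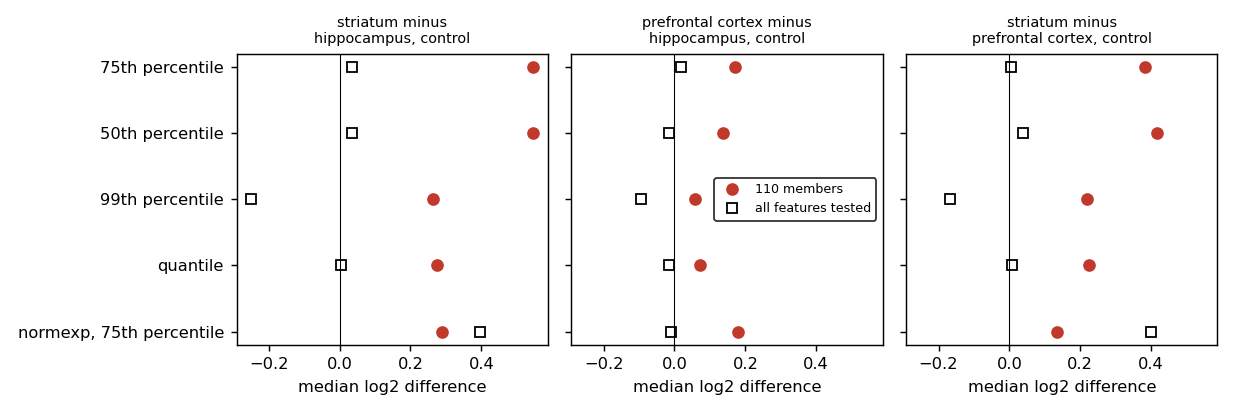
Median log2 difference between regions of control rats for the 110 members and for all features tested, under each scaling of the arrays and with normexp background correction. Striatum against hippocampus is 0.55 for members and 0.03 for all features when scaled by the 75th percentile, and normexp gives 0.29 and 0.40, where the order of members and all features turns.

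Other genes of protein synthesis were read from lists of known genes. In the control striatum against the control hippocampus, 5 of 6 features of ribosome components with other names were called higher (median 0.69), with 0.82 and 0.68 for the 2 features of Rpsa, a small subunit protein also known as the laminin receptor. Arbp, the P0 gene, is not on this list and was not called (0.34, limma adjusted p 0.13). Of 24 features of elongation factors and other TOP mRNAs, 13 were called higher and 0 lower (median 0.47), among them Eif4b, a partner of the initiation helicase, at 0.73 (SE 0.12) and Tpt1, a growth-related protein, at 0.65 (SE 0.12). Initiation factors moved otherwise: 1 of 48 was higher and 2 were lower (median 0.02), the lower ones being both features of Eif4g3, a scaffold of the cap complex, at -0.75 and -0.41. Ribosome biogenesis genes gave 6 higher and 2 lower of 29 (median 0.03). Of 75 features of mitochondrial ribosomal proteins, which are not members, 30 were higher and 1 lower (median 0.30), with Mrpl50 at 0.72. The mTOR and S6 kinase list gave 10 higher and 3 lower of 32 (median 0.18), led by Rps6ka5, a nuclear kinase of the MAPK pathway, at 1.42 and 1.33. The percentages for all features, given above, are 17.0% and 12.5%.

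Cell type markers moved between the same regions. Of 10 oligodendrocyte features, 9 were called higher in the control striatum than in the control hippocampus and 0 lower (median 1.08), and the mean level of the list ran from 2.78 to 2.92 in the control hippocampus, from 1.52 to 2.02 in the control prefrontal cortex and from 3.70 to 3.96 in the control striatum. The oligodendrocyte level was lowest in the prefrontal cortex. Neuron markers gave 3 higher and 7 lower of 11, astrocyte markers 1 and 1 of 8, microglia 2 and 0 of 10, and endothelium 3 and 0 of 11. In bulk tissue a lower share of a cell type and less RNA per cell cannot be told apart, and the part of the cell mixture in the region difference was not tested.

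**Figure D3:**
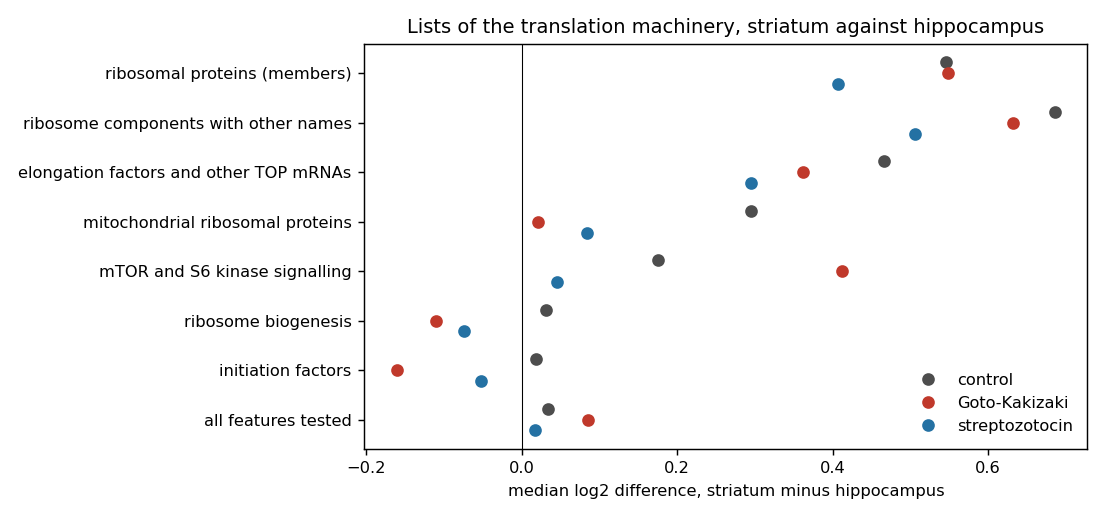
Median log2 difference between the striatum and the hippocampus (horizontal axis) over the features of each list and over all features tested, with 1 point for control, Goto-Kakizaki and streptozotocin rats. The ribosomal protein features have medians of 0.55, 0.55 and 0.41 and initiation factors of 0.02, -0.16 and -0.05 in that order, on the 75th percentile scaling; with normexp the members of controls lie under the median of all features.

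The second comparison asked which ribosomal protein genes differ in the type 2 model. Rps7, a small subunit protein that also binds Mdm2, was called lower in all 3 regions of Goto-Kakizaki rats. Its levels were 1.24, 1.19 and 1.27 in the Goto-Kakizaki hippocampus against 4.36, 4.27 and 4.28 in controls. In the prefrontal cortex they were 1.22, 1.51 and 1.69 against 4.40, 4.73 and 4.56, and in the striatum 1.58, 1.95 and 1.51 against 4.80, 5.56 and 4.77. Groups did not overlap in any region, and the 9 Goto-Kakizaki arrays, from 1.19 to 1.95, lay far below the other 18, from 4.27 to 5.56.

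The Rps7 difference was -3.07 (SE 0.18) in the hippocampus, -3.09 (SE 0.18) in the prefrontal cortex and -3.36 (SE 0.18) in the striatum, with limma adjusted p of 2.2e-10, 1.7e-10 and 5.8e-11. The signal was thus 8.4-, 8.5- and 10.3-fold lower. This rests on the only feature named Rps7, and whether its probe matches the Goto-Kakizaki sequence was not tested. The processed signal of the feature ran from 2651 to 3597 in Goto-Kakizaki rats, well above background on all arrays, and from 20240 to 45870 in the others. Streptozotocin rats had 4.37, 4.82 and 4.42 in the hippocampus, values of 4.50, 4.51 and 4.80 for the prefrontal cortex and 4.88, 5.01 and 4.79 in the striatum. They overlapped with controls in the prefrontal cortex and the striatum and lay just above them in the hippocampus, and their differences of 0.24, 0.04 and -0.15 were not called (limma adjusted p 0.64, 0.97 and 0.67). Against streptozotocin rats Rps7 was lower by -3.31, -3.13 and -3.22 (adjusted p 5.6e-11, 1.6e-10 and 9.9e-11). The study placed Rps7 on a list of genes it chose on these same samples, so its call is not independent evidence. Run here on these values and all features tested, the methods' t-test with Benjamini-Hochberg adjustment called no feature at all in the Goto-Kakizaki prefrontal cortex or striatum. Its missing calls of Rps7 there, given next, are therefore not particular to Rps7. The study, with its own normalization and filters, reported changed genes in both regions. Under the alternatives tried the difference stayed between -3.50 and -2.96, and the methods' t-test with Benjamini-Hochberg adjustment did not call it in the prefrontal cortex (adjusted p 0.079) or the striatum (0.30).

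The effect did not differ detectably between regions. The hippocampus difference minus the striatum difference was 0.29 (95% interval -0.24 to 0.83, limma adjusted p 0.58), the hippocampus minus the prefrontal cortex 0.02 (-0.52 to 0.55, adjusted p 0.99), and the prefrontal cortex minus the striatum 0.28 (-0.26 to 0.81, adjusted p 0.66).

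The array holds other features described as similar to ribosomal protein S7, and these were looked at after the Rps7 values were seen. None of 5 that were tested was called in any of the 9 comparisons between groups of animals, where 2.20% to 16.1% of all features were called. With 5 features, 0 calls are near these shares. LOC497813 had Goto-Kakizaki differences of -0.06, -0.18 and -0.24 in the hippocampus, the prefrontal cortex and the striatum, LOC502174 of 0.13, 0.02 and -0.23, and RGD1566061 of 0.13, 0.14 and 0.13. The other pair, which the array gives no gene name, had 0.04, 0.04 and -0.18, and 0.44, 0.26 and 0.33. A further feature, RGD1308112, was well above background on 0 arrays and was not tested. The probes of Rps7 and LOC497813 are shown because they share a run of 24 bases, marked in capitals, and yet differ in this result. Each probe has 60 bases.

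Rps7 probe: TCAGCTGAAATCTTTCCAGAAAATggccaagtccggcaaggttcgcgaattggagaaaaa
LOC497813 probe: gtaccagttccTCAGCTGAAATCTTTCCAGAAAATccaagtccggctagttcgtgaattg

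**Figure D4:**
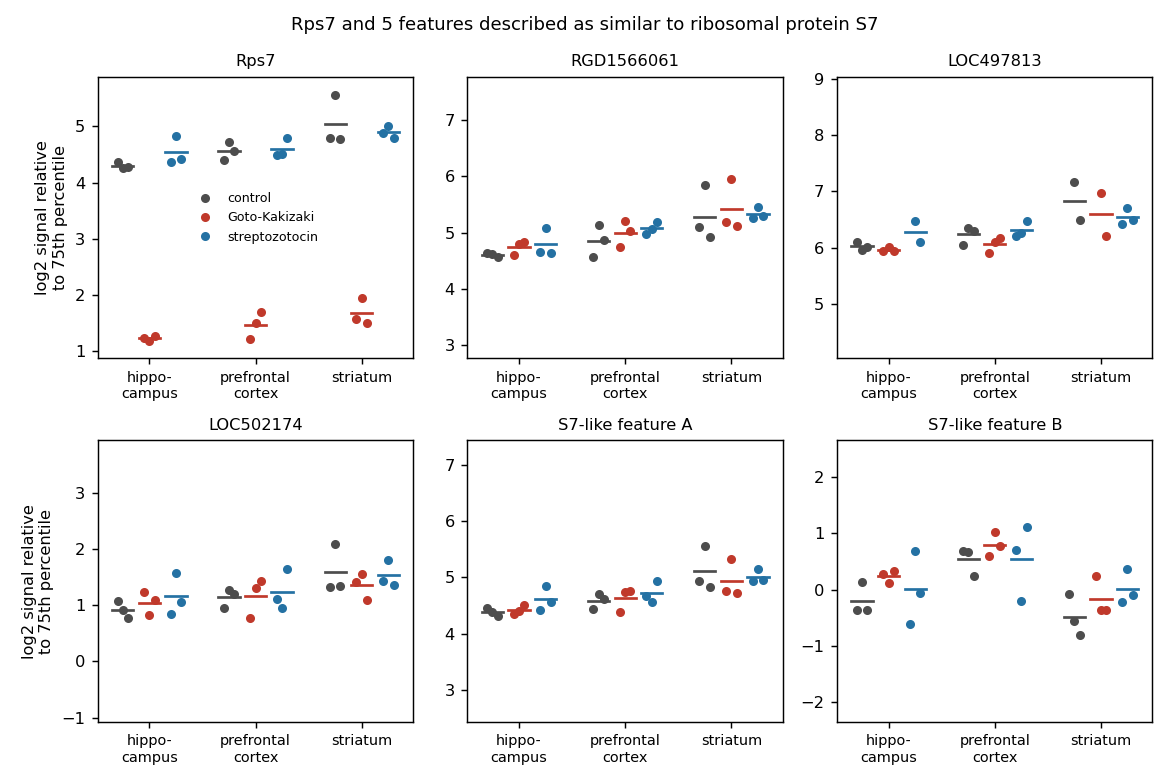
Level of the Rps7 feature and of the other features described as similar to ribosomal protein S7 on each array (log2 over the array's 75th percentile), by region and group, with horizontal lines for the group means, outlier spots left out and axes of equal length that start at different levels. Rps7 lies between 1.19 and 1.95 on the 9 Goto-Kakizaki arrays and between 4.27 and 5.56 on the other 18, and none of the other features was called.

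Beyond Rps7 the family changed little in Goto-Kakizaki rats. In the hippocampus 0 members were called higher and 1, Rps7, lower by limma, where 5.11% of all features were called, and 7 members had an unadjusted p under 0.05. In the prefrontal cortex the counts were 0 and 1 (8.80% of all features called, 5 members at an unadjusted p under 0.05), and in the striatum 1 and 1 (13.8%, 9 members). By the methods' t-test 24, 3 and 1 members had an unadjusted p under 0.05 in these regions, and 1, 0 and 0 were called once adjusted. Quantile normalization called more members in each region, and the fit of the hippocampus groups alone called more there, as given below. The member medians were 0.08, 0.09 and 0.11 against -0.04, 0.01 and 0.02 for all features. In these limma calls the share of members was below that of all features in each region. Relative to all features the prefrontal cortex median turned after quantile normalization (0.01 against 0.04). In the prefrontal cortex and the striatum the member medians were below the SD of the array medians within each group (0.12 to 0.24), and in the hippocampus 0.08 stood beside SDs of 0.06 and 0.05.

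The member called higher in the striatum was Rps15, by an expressed sequence tag. Its levels were 0.61, 1.09 and 0.62 against 0.59, 0.21 and -0.07 in controls, without overlap, a difference of 0.53 (SE 0.17, limma adjusted p 0.040). The call was lost at the 50th percentile, with normexp, without the filter on dim features and in the fit of these groups alone, and it was lost without Goto-Kakizaki pool 2, control pool 2 or control pool 3. The Rps15 feature with a ribosomal description had levels of 2.88, 3.31 and 2.78 against 3.04, 1.55 and 2.50 and overlapped (difference 0.63, adjusted p 0.091).

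The stalk, Rps6 and the paralogues were not called in Goto-Kakizaki rats. Rplp1 differed by -0.06, 0.02 and 0.23 in the hippocampus, the prefrontal cortex and the striatum (SE 0.13 each), Rplp2 by 0.02, 0.09 and 0.17 (SE 0.20, 0.18 and 0.18, with Goto-Kakizaki hippocampus pool 1 left out as an outlier spot) and Rps6 by 0.11, -2e-04 and 0.04 (SE 0.13 each). Rpl10l differed by 0.34, -0.02 and -0.11 (SE 0.24 each) and Rpl3l by 0.03, -0.12 and -0.17 (SE 0.18 each). Rpl10a, a large subunit protein, came nearest to the threshold in the prefrontal cortex. Its levels were 3.91, 4.33 and 4.29 against 3.58, 3.69 and 3.62 in controls and 3.48, 3.27 and 3.72 in streptozotocin rats. The difference was 0.54 (SE 0.18, limma adjusted p 0.061) from controls and 0.69 (SE 0.18, adjusted p 0.011) from streptozotocin rats, which was called but lost without Goto-Kakizaki pool 2 or 3 or streptozotocin pool 2.

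Goto-Kakizaki and streptozotocin rats were also set against each other. In the hippocampus 0 members were higher and 1, Rps7, lower, where 8.70% of all features were called. In the prefrontal cortex Rpl10a was higher and Rps7 lower (15.8% of all features called), and in the striatum Rpl17 was higher and Rps7 lower (16.1%). Rpl17, which lies at the exit of the peptide tunnel, had levels of 5.65, 6.06 and 5.55 in Goto-Kakizaki pools and of 5.24, 5.33 and 5.29 in streptozotocin pools of the striatum, a difference of 0.47 (SE 0.15, adjusted p 0.041) for 1 of its 2 features, which was lost with normexp and without Goto-Kakizaki pool 2 or any 1 streptozotocin pool. These comparisons share the Goto-Kakizaki arrays with those against controls.

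**Figure D5:**
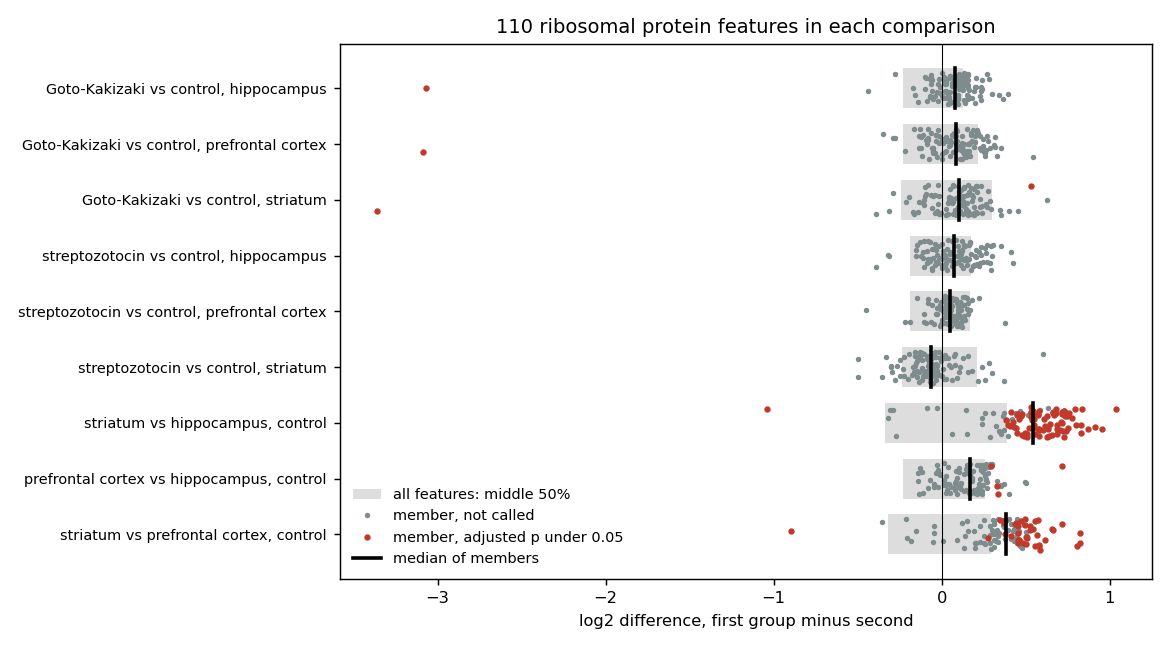
Log2 differences (horizontal axis, first group minus second) of the 110 members, 1 point each and red where called, for each diabetic group against controls and for the regions of controls, with the members' median as a black line and the middle 50% of all features in grey. Rps7 stands at -3.07, -3.09 and -3.36 in Goto-Kakizaki rats, while the member medians of the diabetic groups lie between -0.06 and 0.11 and those of the regions at 0.55, 0.17 and 0.38; with normexp the striatum medians fall under those of all features, the streptozotocin medians of the prefrontal cortex and the striatum change sign with normexp and with quantile normalization, and relative to all features the Goto-Kakizaki median of the prefrontal cortex does so with quantile normalization.

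The third comparison asked the same of the type 1 model. By limma 0 of 110 members were called in the hippocampus, the prefrontal cortex or the striatum of streptozotocin rats, where 2.20%, 2.67% and 3.25% of all features were called. At an unadjusted p under 0.05 the counts were 9, 1 and 7. The methods' t-test with the same adjustment called 0 members in each region, with 5, 2 and 1 at an unadjusted p under 0.05. It also called 0 of all features in each region, so its 0 is not particular to the members. The member medians were 0.08, 0.05 and -0.06 against -0.01, 0.01 and -0.03 for all features, and those of the prefrontal cortex and the striatum turned to -0.07 and 0.19 with normexp and to -0.04 and 0.00 after quantile normalization. The size of each was below the SD of the array medians in at least 1 of the groups compared (0.09 to 0.24).

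Single members came no nearer than follows. In the hippocampus Rpl34 differed by 0.43 (limma adjusted p 0.12) and 1 of 5 Rpl21 features by 0.27 (adjusted p 0.18). In the prefrontal cortex the values were 0.38 for 1 of 2 Rpl28 features (adjusted p 0.13) and -0.45 for 1 of 2 Rpl13 features (adjusted p 0.38), where the streptozotocin pools of 5.83, 6.40 and 5.08 spread wider than the controls at 5.91, 6.44 and 6.32. In the striatum Rpl37a lay at -3.69, -4.07 and -3.80 against -4.38, -4.35 and -4.64, without overlap, but its difference of 0.60 (SE 0.17) was not called (adjusted p 0.056) and was -0.45 with normexp. Rpl3l differed by -0.50 (SE 0.18, adjusted p 0.13) in the striatum. Rplp1 and Rps6 had differences between -0.15 and 0.14 over the 3 regions, with an SE of 0.13.

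Whether the effect in Goto-Kakizaki rats differed from region to region was tested for each member. By limma 0 members were called for the hippocampus against the striatum (0.721% of all features called), the hippocampus against the prefrontal cortex (0.298%) or the prefrontal cortex against the striatum (0.167%), with 7, 2 and 1 members at an unadjusted p under 0.05. The methods' t-test was not run on these differences. Among the nearest was Rpl15 at 0.49 (adjusted p 0.15) for the hippocampus against the striatum. For the hippocampus against the prefrontal cortex Rpl10a had -0.55 (adjusted p 0.41) and Rpl15 0.36 (adjusted p 0.44), while Rps15 had -0.90 (adjusted p 0.29) in the prefrontal cortex against the striatum.

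The same lists were read in the diabetic models, where in Goto-Kakizaki rats 5.11%, 8.80% and 13.8% of all features were called in the hippocampus, the prefrontal cortex and the striatum. Of the 6 features of other ribosome components 0 were called by limma in any region of either model. Among the TOP mRNAs, 2 features of Nap1l1, a histone chaperone, were called higher in the Goto-Kakizaki hippocampus (0.48 and 0.36), Pabpc1, the poly(A) binding protein, was higher in the prefrontal cortex (0.57) and the striatum (0.50), and 0 were called in streptozotocin rats. For Rps6ka5, 1 feature was lower in Goto-Kakizaki rats, at -0.45, -0.57 and -0.57 in the hippocampus, the prefrontal cortex and the striatum. A second Rps6ka5 feature was not called in the hippocampus. Insr, the insulin receptor, was higher in the hippocampus (0.57) and the striatum (0.67). In the streptozotocin hippocampus Insr was higher by 0.74 (SE 0.15, limma adjusted p 0.0088). Mitochondrial ribosomal proteins gave 3 higher and 1 lower of 75 in the Goto-Kakizaki hippocampus, 5 and 2 in the prefrontal cortex, and 2 and 7 in the striatum, with Mrpl42 at -0.68 and -0.71 and Mrpl52 at 0.82 and 0.72 in the latter regions. Ribosome biogenesis genes gave 0 of 29 called in the Goto-Kakizaki hippocampus, 1 of 28 in the prefrontal cortex, which was higher, and in the striatum 2 higher and 5 lower of 29. Initiation factors gave 1 and 1, 2 and 0, and 1 and 4 of 48. Among markers, Mobp, a myelin protein, was lower in Goto-Kakizaki rats (-1.96, -1.63 and -1.79 for its first feature) and Hbb, a haemoglobin chain, was higher in the striatum (1.43). Oligodendrocyte markers gave 3, 3 and 2 of 10 lower and 0 higher over the regions. Mobp features were among them in each region, and those of the striatum were all Mobp. Microglia markers gave 1 of 10 lower in the hippocampus, and 3 and 4 of 10 higher in the prefrontal cortex and the striatum. Of 7 features of medium spiny neuron genes, 4 were lower in the Goto-Kakizaki prefrontal cortex (median -1.22) and 2 in the streptozotocin prefrontal cortex (median -0.86). The control pools were uneven here, with a mean level of the list from -2.01 to -0.01. That range holds the Goto-Kakizaki pools (-1.93 to -1.46) and the streptozotocin pools (-1.93 to -1.55). The part of these markers in the small member medians was not tested.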

How the data were processed

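RNA of 27 pools was labelled with 1 dye and hybridised to Agilent rat arrays. The authors extracted spot intensities with Agilent Feature Extraction 9.1, per the submitters' processing notes; the deposited processed signal is an intensity after background subtraction, unscaled between arrays, and the deposited value table holds the same intensity (largest difference 0), so it served as no separate alternative. Mean and background intensities, as deposited, were used for normexp (offset 50). Here the processed signal was divided by the 75th percentile of its array and put on a log2 scale, leaving out controls and outlier spots; the deposited values are not on a log2 scale. A feature was tested where 2 or more arrays of some group of the regions compared were well above background, which kept 32078 in at least 1 region, out of 41012.

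In limma 3.58.1 (R 4.3.3, data.table version 1.17.8), 9 group means were fitted to the 27 arrays with eBayes, with 18 residual and 2.56 prior degrees of freedom. P-values were two-sided and adjusted by Benjamini-Hochberg over all features of a comparison, with calls at an adjusted p under 0.05. The methods' t-test (Welch's) was run on the same values and features, without the study's own normalization and filters. The fit was tested on simulated data. The number of arrays limits the precision.

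Members and gene lists were chosen with earlier results of these data known. Named genes were the stalk proteins, Rps6, Rps7 and paralogues; per comparison up to 4 higher and 4 lower called members with the smallest p, or, where none was called, the 2 of smallest p; the 4 members with the widest and the 4 with the narrowest range of group means; and up to 2 called genes per other list. Genes named outside this rule were chosen after their values were seen, and some members that the rule selects are not reported here. Replicate numbers paired by the correlation of deviations from group means only for Goto-Kakizaki against control in the hippocampus (0.109, 0.123 and 0.137), streptozotocin against control in the prefrontal cortex (0.527, 0.441 and 0.699) and the prefrontal cortex against the hippocampus of streptozotocin rats (0.557, 0.283 and 0.698). Alternatives were other scalings, normexp, filters, fewer groups, the methods' t-test, a 2-fold threshold, 1 feature per gene, blocks for number or slide, single slides and leaving out each pool. The 99th percentile, the regions in diabetic rats, the fit without the 6 features lacking a ribosomal description and the other S7 features were chosen after seeing the data.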

Additional observations from a re-analysis of the deposited data

How the results depend on the processing

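Of the summary values recomputed under the alternatives, 417 kept their direction and stayed near the reported value and 79 moved; of the values for named genes, 545 stayed on their side of the threshold, 99 lost it, 3 gained it and 10 reversed, while 6 within-slide values with no test moved by more than the spread. The cause was not tested. At the 50th percentile the member median of Goto-Kakizaki against control was 0.187 in the hippocampus, and the counts called were 2 in the prefrontal cortex, 1 in the striatum and 0 for the prefrontal cortex above the hippocampus. Quantile normalization called 3, 6 and 6 members in Goto-Kakizaki against control (hippocampus, prefrontal cortex, striatum), 1 each in the streptozotocin hippocampus and striatum, and 4 and 12 in Goto-Kakizaki against streptozotocin (hippocampus, prefrontal cortex), with region medians of 0.276 (striatum against hippocampus) and 0.0709 (prefrontal cortex against hippocampus). The 99th percentile gave 0.262 and 0.0569 for these. Normexp moved the median of all features by over 0.1 and gave region medians of 0.290 (striatum against hippocampus) and 0.135 (striatum against prefrontal cortex) with 6 and 3 members called, 0 for the prefrontal cortex against the hippocampus, 1 in the striatum for Goto-Kakizaki against control and against streptozotocin, streptozotocin medians of -0.0743 (prefrontal cortex) and 0.190 (striatum), and medians of -0.219 and -0.256 for the Goto-Kakizaki effect of the hippocampus and of the prefrontal cortex against the striatum.

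Without the filter on dim features, the counts were 1 (Goto-Kakizaki striatum) and 0 (prefrontal cortex above hippocampus). The 2 groups alone gave 9 in the Goto-Kakizaki hippocampus, 1 in its striatum, 34 for the striatum above the hippocampus and 2 above the prefrontal cortex. The methods' t-test with adjustment gave 0 in the Goto-Kakizaki prefrontal cortex and striatum, 2 for the striatum above the hippocampus and 0 for the other region pairs. Over all features it called 0 in both of those Goto-Kakizaki regions and 1573 for the striatum against the hippocampus. The counts were 1490 for the prefrontal cortex against the hippocampus and 788 for the striatum against the prefrontal cortex. A 2-fold threshold left 1 in the Goto-Kakizaki striatum, 1 for the striatum above the hippocampus and 0 for the other pairs. With 1 feature per gene the counts were 1 (Goto-Kakizaki striatum), 1 (prefrontal cortex above hippocampus) and 25 (striatum above prefrontal cortex), and without the 6 features lacking a ribosomal description 1 in the Goto-Kakizaki striatum. The replicate block left 0 members for the prefrontal cortex above the hippocampus, where numbers do not pair the samples, and changed no other count by over 1.5 times. The correlation of arrays on 1 slide was 0.0108. Within single slides the medians were 0.0222 (slide 2, Goto-Kakizaki hippocampus), 0.181 (slide 4, Goto-Kakizaki striatum), -0.0574, 0.117 and 0.102 (slides 5, 6 and 7, streptozotocin prefrontal cortex), and 0.636 and 0.122 (slides 5 and 6, striatum against prefrontal cortex). In streptozotocin rats the region counts were 37 and 11, and in both diabetic groups 0 for the prefrontal cortex above the hippocampus.

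Leaving out 1 pool gave 41 to 90 members for the striatum above the hippocampus (41 without control striatum pool 2), 10 to 52 above the prefrontal cortex (10 without that pool, 13 and 24 without control prefrontal cortex pools 1 and 2) and 0 to 3 for the prefrontal cortex above the hippocampus (0 without control hippocampus pool 1 or 3 or prefrontal cortex pool 2 or 3, 1 without hippocampus pool 2). For Goto-Kakizaki against control it gave 1 to 2 in the prefrontal cortex (2 without Goto-Kakizaki pool 1) and 1 to 4 in the striatum (4 without control pool 1, 1 without Goto-Kakizaki or control pool 2); against streptozotocin 1 to 2 in the hippocampus (2 without streptozotocin pool 2), 1 to 3 in the prefrontal cortex (1 without Goto-Kakizaki pool 2 or 3) and 1 to 4 in the striatum (4 without Goto-Kakizaki pool 1, 1 without any 1 streptozotocin pool); for streptozotocin against control 0 to 1 in the striatum (1 without control pool 3 or streptozotocin pool 2); and for the Goto-Kakizaki effect between regions 0 to 2 (hippocampus against striatum) and 0 to 1 (prefrontal cortex against striatum), both highest without control striatum pool 1, and medians from -0.127 to 0.0915 (hippocampus against prefrontal cortex, lowest without Goto-Kakizaki prefrontal cortex pool 1). Reversed were the normexp values of Rpl37a, 0.257 and 0.344 for the control striatum against the hippocampus and the prefrontal cortex and -0.448 for streptozotocin in the striatum. The difference of the Rps7 effect, never called, reversed between the hippocampus and the prefrontal cortex after quantile normalization (-0.0536), with normexp (-0.110) and without single pools (lowest -0.110, highest 0.126), and with normexp for the hippocampus against the striatum (-0.0166). No spot was saturated and the value table was the same signal, so neither gave an alternative, and within-slide values were computed for no other comparison.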

Other observations

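Features of a few large subunit genes kept the region difference in each group of animals, and these were picked after their values were seen. Rpl26, which lies near the peptide exit, was called, by 1 of its 2 features, higher in the striatum than in the hippocampus of control, Goto-Kakizaki and streptozotocin rats, by 0.71, 0.76 and 0.64 (SE 0.15 each, limma adjusted p 0.00077, 0.00036 and 0.0024), and than in the prefrontal cortex by 0.52, 0.66 and 0.42 (adjusted p 0.010, 0.0015 and 0.036). Its other feature was not called in streptozotocin rats (0.32 and 0.19, adjusted p 0.14 and 0.40) or between the striatum and the prefrontal cortex of controls (0.31, adjusted p 0.14). Rpl30 differed from the hippocampus by 0.53, 0.66 and 0.64 and from the prefrontal cortex by 0.51, 0.59 and 0.48 (SE 0.14 each), and all 6 differences were called by limma. Rpl22 was called in the 6 comparisons as well, with 0.69, 0.76 and 0.56 against the hippocampus and 0.82, 0.70 and 0.60 against the prefrontal cortex. Rpl23a was called in 5 of the 6, with 0.36 (adjusted p 0.091) between the striatum and the prefrontal cortex of Goto-Kakizaki rats. These values are on the 75th percentile scaling, and with normexp the members as a whole lay below the median of all features in controls.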
